A study of Mus musculus with 8 samples.

Results

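Cholesterol synthesis and transport was followed across 31 genes in the hypothalamus of mouse pups whose microglia had been depleted with PLX3397, an inhibitor of the CSF1 receptor kinase on which microglia depend for survival. The genes were taken by name from the deposited gene table, where all 31 were found among 55401 genes, and all 31 passed the filter on low values that left 16894 genes for testing. They comprised 19 enzymes of sterol synthesis and 5 genes that encode the SREBP transcription factors or their regulators. The other members were 3 genes of sterol transfer and lysosomal exit, and 4 genes of cholesterol efflux and its control by LXR. Lipoprotein receptors, which carry out the uptake step itself, are not among the 31 and were followed in a separate list.

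The series held 8 libraries of total RNA depleted of ribosomal RNA, 4 from pups gavaged with vehicle and 4 from pups gavaged with PLX3397. Gavage ran from postnatal day 9 to day 15, and hypothalami were taken at day 19, 4 days after the last dose. Each group held 2 females (F1, F2) and 2 males (M1, M2), and a library is named below by its group and this label. Strain, genotype and litter were not given in these sources. The p-values set differences against the spread between these libraries and treat the libraries as independent. Pups that share a litter would not be independent. The tissue label reads brain, but transcripts of all 10 hypothalamic marker genes, among them Agrp and Npy, passed the filter on low values.

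Cells make cholesterol from acetyl-CoA through mevalonate, farnesyl diphosphate, squalene and lanosterol. When sterol in the endoplasmic reticulum is low, SCAP escorts SREBP proteins to the Golgi for activation and they raise transcription of the pathway's enzymes, whereas INSIG proteins hold the complex back when sterol is high. Oxysterols activate the LXR receptors, which raise transcription of the exporters ABCA1 and ABCG1. In the brain, cholesterol is made locally by glia, and oligodendrocytes need large amounts of it to build myelin.

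Total counts ran from 54115300 to 67487391 per library, so that a floor of 3 counts stood at 0.0445 to 0.0554 CPM (counts scaled to library size), and the lowest member lay far above it. Microglial depletion was visible in 10 of 10 microglial markers, whose values in all 4 PLX3397 libraries lay below those in all 4 vehicle libraries. Their summed level was 312 to 323 CPM with vehicle and 23.8 to 50.1 CPM with PLX3397, and C1qa and Fcrls were at 0 in PLX3397 M2, the library with the lowest sum. Vehicle F1 carried pituitary transcripts, with 3062 CPM summed over 5 hormone genes against 4.90 to 14.4 CPM in the other 7 libraries. Results were therefore also computed without each of these libraries and without both. The share of counts from the mitochondrial genome was 4.51% to 4.88% with vehicle and 4.87% to 5.36% with PLX3397.

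The promoters of 4 synthesis enzymes and of Abca1 are shown because these genes gave the smallest p-values among the enzymes and among the efflux genes for which the promoter table held an entry. Each runs 5′ to 3′ on the gene's strand from 250 bases before to 50 bases after the RefSeq start (RefSeq, GRCm38.p6). Capitals mark exact matches, on either strand, to TCACNCCAC (a consensus of the SREBP site), CCAAT (the NF-Y box, ATTGG on the other strand) or GGGCGG (the Sp1 box, CCGCCC on the other strand). The windows are Hmgcs1 at chr13:119690101-119690400 on the plus strand, Mvd at chr8:122443373-122443672 on the minus strand, Ebp at chrX:8193463-8193762 on the minus strand, Lss at chr10:76531355-76531654 on the plus strand and Abca1 at chr4:53159846-53160145 on the minus strand.
Hmgcs1: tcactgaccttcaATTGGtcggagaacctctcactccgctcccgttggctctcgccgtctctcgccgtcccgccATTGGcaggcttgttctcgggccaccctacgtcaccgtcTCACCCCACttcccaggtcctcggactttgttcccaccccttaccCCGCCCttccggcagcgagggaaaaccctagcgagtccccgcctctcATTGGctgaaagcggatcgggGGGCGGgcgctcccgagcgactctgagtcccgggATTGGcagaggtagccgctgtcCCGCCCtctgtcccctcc
Mvd: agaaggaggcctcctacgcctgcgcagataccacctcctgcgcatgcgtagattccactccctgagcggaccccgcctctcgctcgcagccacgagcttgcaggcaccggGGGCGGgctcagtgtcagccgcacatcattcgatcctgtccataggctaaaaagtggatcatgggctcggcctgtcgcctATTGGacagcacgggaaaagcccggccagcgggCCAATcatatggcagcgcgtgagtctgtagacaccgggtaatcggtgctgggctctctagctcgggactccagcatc
Ebp: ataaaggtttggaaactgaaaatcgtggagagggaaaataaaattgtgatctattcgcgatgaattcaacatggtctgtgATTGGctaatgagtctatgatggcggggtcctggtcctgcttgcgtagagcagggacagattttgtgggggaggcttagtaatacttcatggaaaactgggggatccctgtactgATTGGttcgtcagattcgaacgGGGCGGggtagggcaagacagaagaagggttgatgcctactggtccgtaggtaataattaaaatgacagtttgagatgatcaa
Lss: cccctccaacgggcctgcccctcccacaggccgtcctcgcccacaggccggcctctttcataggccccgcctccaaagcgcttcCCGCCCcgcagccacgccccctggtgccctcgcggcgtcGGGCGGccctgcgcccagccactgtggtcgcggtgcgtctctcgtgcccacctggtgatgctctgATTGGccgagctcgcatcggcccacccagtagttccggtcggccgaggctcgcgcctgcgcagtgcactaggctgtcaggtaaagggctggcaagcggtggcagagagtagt
Abca1: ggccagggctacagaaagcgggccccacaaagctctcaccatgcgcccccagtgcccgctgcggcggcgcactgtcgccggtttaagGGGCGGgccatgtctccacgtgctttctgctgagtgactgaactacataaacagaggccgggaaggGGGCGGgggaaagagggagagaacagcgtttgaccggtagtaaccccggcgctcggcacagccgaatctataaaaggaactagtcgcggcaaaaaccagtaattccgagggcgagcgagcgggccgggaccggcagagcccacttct
In the Hmgcs1 window the SREBP consensus began 137 bases before the start, between NF-Y boxes on both sides. It was the only match to this consensus among the 25 members with a promoter in the table, and 1.44% of 27025 genes held one. An NF-Y box was present in 15 of 16 synthesis enzymes, all but Acat2, against 41.1% of all genes and 42.5% of the tested genes with a promoter. An Sp1 box was present in 15 of the 16, all but Pmvk, against 38.2% and 67.6%. Abca1 held Sp1 boxes only. No 2 matches overlapped in the printed windows, and a match is a description of letters, not of binding.

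Across the 31 genes, transcript levels were slightly lower after PLX3397. The log2 fold change, PLX3397 against vehicle with sex as a covariate, was negative for 29 of 31 genes, with a median of −0.19, whereas 50.6% of all tested genes were negative, with a median of −0.00. A single member, Hmgcs1, passed an adjusted p of 0.05 in edgeR's quasi-likelihood test over all tested genes, and it fell. That is 1 of 31 against 1.83% of all tested genes called lower, so the share of calls was near the background, and no member was called higher against 0.308%. In 7 of the 31, all 4 PLX3397 values lay below all 4 vehicle values, against 6.32% of tested genes, and in none did all lie above, against 4.85%. At an unadjusted p under 0.05, 10 members were lower and 0 higher, against 9% and 7.24% of tested genes. DESeq2, an alternative to edgeR, called 7 members lower, against 4.47% of tested genes, and 0 higher, against 342 of 16894 tested genes. In bulk tissue, fewer cells of a type and less RNA per cell cannot be told apart.

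**Figure D1:**
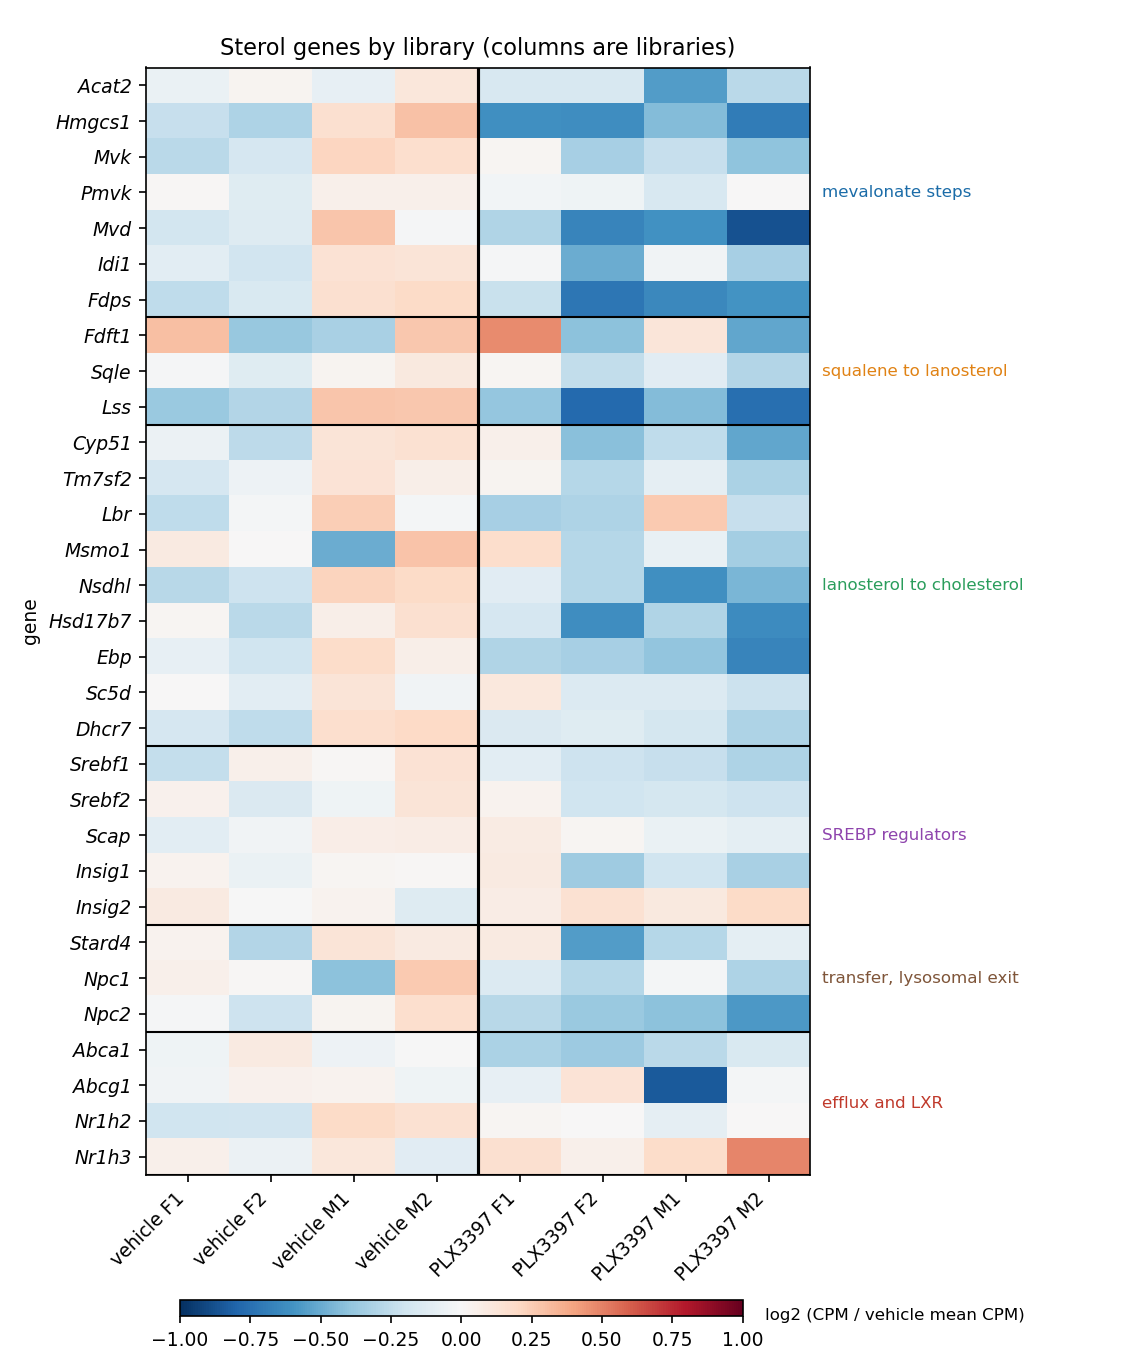
Levels of the 31 genes in each library, as log2 of CPM over the vehicle mean, with genes in rows by step and libraries in columns. Blue is below and red above the vehicle mean. PLX3397 F1 is the palest of the treated columns, and the vehicle males are mostly red where the vehicle females are mostly blue.

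The 7 enzymes of the mevalonate steps were all negative and had the most negative median of the 6 groups of members, −0.29. Hmgcs1, the cytosolic HMG-CoA synthase (ENSMUSG00000093930, chr13:119690379-119708260), stood at 257 and 244 CPM in the vehicle females and at 337 and 370 CPM in the vehicle males. With PLX3397 it stood at 197 and 196 CPM in the females and at 223 and 186 CPM in the males. The groups did not overlap, and the highest treated value was a male's while the lowest vehicle value was a female's. Hmgcs1 fell by 0.57 ± 0.10 (SE) on the log2 scale, 1.48-fold (edgeR adjusted p = 0.0383, n = 4 per group, lower in 4 of 4 treated libraries). It was also the most abundant member per length, at 57.5 ± 11.3 FPKM (SD, n = 4) with vehicle. The call was close to the threshold. Of the 8 fits that left out 1 library it passed in 1, that without PLX3397 M2 (adjusted p = 0.0447), and the adjusted p in the other 7 ran from 0.0506 to 0.12, with log2 fold changes from −0.63 to −0.47 over all 8. Without sex as a covariate the adjusted p was 0.065, and with the replicate label as a block it was 0.138.

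Mvd, which decarboxylates mevalonate diphosphate, and Fdps, which joins isoprenoid units into farnesyl diphosphate, had log2 fold changes of similar size and did not pass. Mvd stood at 23.2, 24.0, 31.8 and 26.1 CPM with vehicle (F1, F2, M1 and M2 in turn) and at 21.3, 16.6, 17.3 and 14.4 CPM in the corresponding PLX3397 libraries. Every treated value lay below every vehicle value, with PLX3397 F1 nearest to the vehicle range (log2 fold change −0.59 ± 0.15, edgeR adjusted p = 0.11). Fdps stood at 40.0, 42.8, 53.3 and 54.3 CPM with vehicle and at 40.8, 28.9, 30.4 and 31.5 CPM with PLX3397. Here PLX3397 F1 lay inside the vehicle range and the other 3 treated libraries below it (−0.52 ± 0.14, adjusted p = 0.134). Acat2, the cytosolic thiolase that opens the pathway, ranged from 59.3 to 68.1 CPM with vehicle and from 42.5 to 56.2 CPM with PLX3397, again without overlap (−0.29 ± 0.09, adjusted p = 0.19). The kinases Mvk and Pmvk and the isomerase Idi1 had smaller differences, of −0.22, −0.06 and −0.20, with overlapping groups and adjusted p from 0.475 to 0.718.

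In the squalene and lanosterol steps, 3 of 3 genes were negative with a median of −0.15, and none passed. Lss, which closes the ring system to form lanosterol, stood at 57.6 and 60.7 CPM in the vehicle females and at 90.1 and 89.7 CPM in the vehicle males. With PLX3397 the females stood at 57.0 and 43.4 CPM and the males at 55.1 and 44.1 CPM. All treated values lay below all vehicle values, although PLX3397 F1 and vehicle F1 differed by less than 1 CPM, and the wide gap was that between the males (−0.55 ± 0.15, edgeR adjusted p = 0.138). Sqle, the squalene epoxidase, ranged from 76.2 to 88.5 CPM with vehicle and from 67.8 to 84.1 CPM with PLX3397 (−0.15, adjusted p = 0.419). Fdft1, the squalene synthase, varied most between libraries of the same group, from 57.3 to 91.8 CPM with vehicle and from 52.1 to 104 CPM with PLX3397. Its log2 fold change of −0.03 ± 0.26 turned positive when vehicle F1, vehicle M2, PLX3397 F2 or PLX3397 M2 was left out. Fdft1 overlaps Ctsb on the other strand, a gene at 581 CPM with vehicle, and the part of shared reads was not tested.

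Among the 9 enzymes from lanosterol to cholesterol, 9 of 9 were negative with a median of −0.17, and none passed. Ebp, the sterol isomerase encoded on the X chromosome, stood at 20.6, 19.04, 24.8 and 22.8 CPM with vehicle (F1, F2, M1 and M2 in turn) and at 17.7, 17.3, 16.6 and 13.8 CPM in the PLX3397 libraries. The groups did not overlap, and PLX3397 M2 was the lowest of the 8 (−0.41 ± 0.11, edgeR adjusted p = 0.136). Hsd17b7, a ketoreductase of demethylation, had the same fold change of −0.41 with ranges of 15.97 to 21.5 CPM and 12.5 to 17.1 CPM that met only through vehicle F2 (adjusted p = 0.206). Nsdhl, the dehydrogenase of the same demethylation, stood at 21.2 and 22.3 CPM in the vehicle females, 30.1 and 29.3 CPM in the vehicle males, 23.8 and 21.1 CPM in the treated females and 16.8 and 18.8 CPM in the treated males (−0.34 ± 0.16, adjusted p = 0.343). The treated males were the lowest and the vehicle males the highest, with the females of both groups between them. The remaining 6, namely the demethylase Cyp51, the sterol reductases Tm7sf2 and Lbr, the oxidase Msmo1, the desaturase Sc5d and the last reductase Dhcr7, lay between −0.27 and −0.09 with adjusted p from 0.42 to 0.798. Cyp51 and Tm7sf2 overlap other expressed genes, Akap9 on the other strand and Vps51 on the same strand, and the part of shared reads in their values was not tested. So do Srebf1, Srebf2, Scap, Insig2 and Npc1, which makes 8 of the 31 with an overlapping tested gene.

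**Figure D2:**
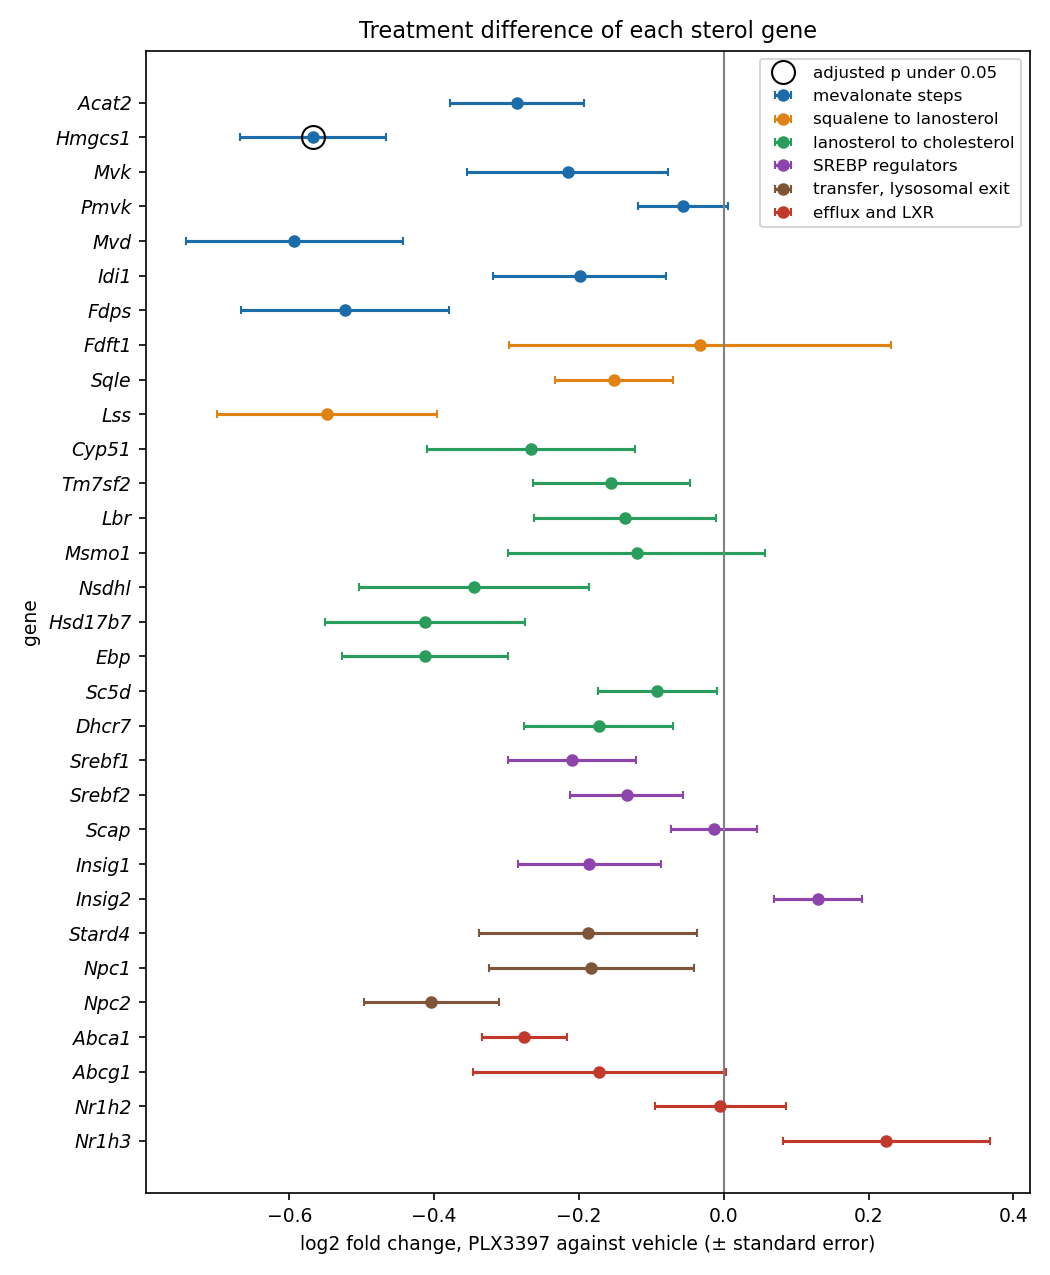
Log2 fold change of each gene, PLX3397 against vehicle, from the edgeR fit with sex as a covariate, with bars of 1 standard error and colours by step. The circled point, Hmgcs1 at −0.57, is the single gene with an adjusted p under 0.05, and Insig2 and Nr1h3 are the 2 points right of 0.

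No gene of the SREBP factors or their regulators passed, and none of the 5 had treated values that all lay on one side of the vehicle values. Srebf2, whose product is the main activator of the synthesis enzymes, stood at 181 to 219 CPM with vehicle and at 172 to 204 CPM with PLX3397 (−0.13 ± 0.08, edgeR adjusted p = 0.459). Srebf1, whose product acts chiefly on fatty acid genes, had a log2 fold change of −0.21 (adjusted p = 0.301). Scap, the escort protein, had a log2 fold change of −0.01 ± 0.06. Insig1, itself a target of SREBP, and Insig2 had opposite signs. Insig1 stood at 69.3 to 74.3 CPM with vehicle and at 77.4, 56.7, 63.3 and 58.1 CPM with PLX3397, so that PLX3397 F1 was the highest of the 8 libraries and the other 3 treated libraries the lowest (−0.19, adjusted p = 0.414). Insig2 ranged from 41.5 to 48.1 CPM with vehicle and from 47.7 to 51.9 CPM with PLX3397 (0.13 ± 0.06, adjusted p = 0.353).

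Of the 3 genes of sterol transfer and lysosomal exit, Npc2 separated the groups. Npc2 encodes the soluble lysosomal protein that hands cholesterol to the membrane protein NPC1 for export from the lysosome. It stood at 84.1, 73.7, 86.3 and 95.5 CPM with vehicle (F1, F2, M1 and M2 in turn) and at 69.9, 65.5, 63.8 and 57.1 CPM in the PLX3397 libraries. The lowest vehicle value lay above the highest treated value, but the difference did not pass (−0.40 ± 0.09, edgeR adjusted p = 0.0874). Npc1 overlapped between the groups, at 55.5 to 88.5 CPM and 59.6 to 72.4 CPM (−0.18, adjusted p = 0.584), as did Stard4, a cytosolic sterol carrier (−0.19, adjusted p = 0.598). Microglial markers moved with the same groups over a far wider range, as given above, and their part in the Npc2 difference was not tested.

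Among the efflux genes, Abca1, which loads cholesterol onto apolipoproteins at the cell surface (chr4:53030787-53159895), had the smallest adjusted p after Hmgcs1. It stood at 77.5, 85.0, 77.4 and 79.9 CPM with vehicle (F1, F2, M1 and M2 in turn) and at 64.1, 62.1, 66.2 and 72.1 CPM in the PLX3397 libraries. The groups did not overlap, and unlike most synthesis enzymes the vehicle males and females lay in the same range (−0.28 ± 0.06, edgeR adjusted p = 0.0673). Without sex as a covariate Abca1 passed (adjusted p = 0.045). Abcg1, the partner exporter that delivers cholesterol to lipoprotein particles, stood at 84.0 to 89.3 CPM with vehicle and at 81.8, 95.3, 48.4 and 85.6 CPM with PLX3397. The low value of PLX3397 M1 set its fold change of −0.17 ± 0.17, which became 0.01 without that library. The LXR genes Nr1h2 and Nr1h3 had log2 fold changes of −0.00 and 0.22 (adjusted p = 0.986 and 0.498), and Nr1h3 was the least abundant member per length, at 0.991 ± 0.076 FPKM with vehicle. A pseudogene named after Nr1h2 is annotated, so the counts of Nr1h2 are uncertain where the 2 share sequence.

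**Figure D3:**
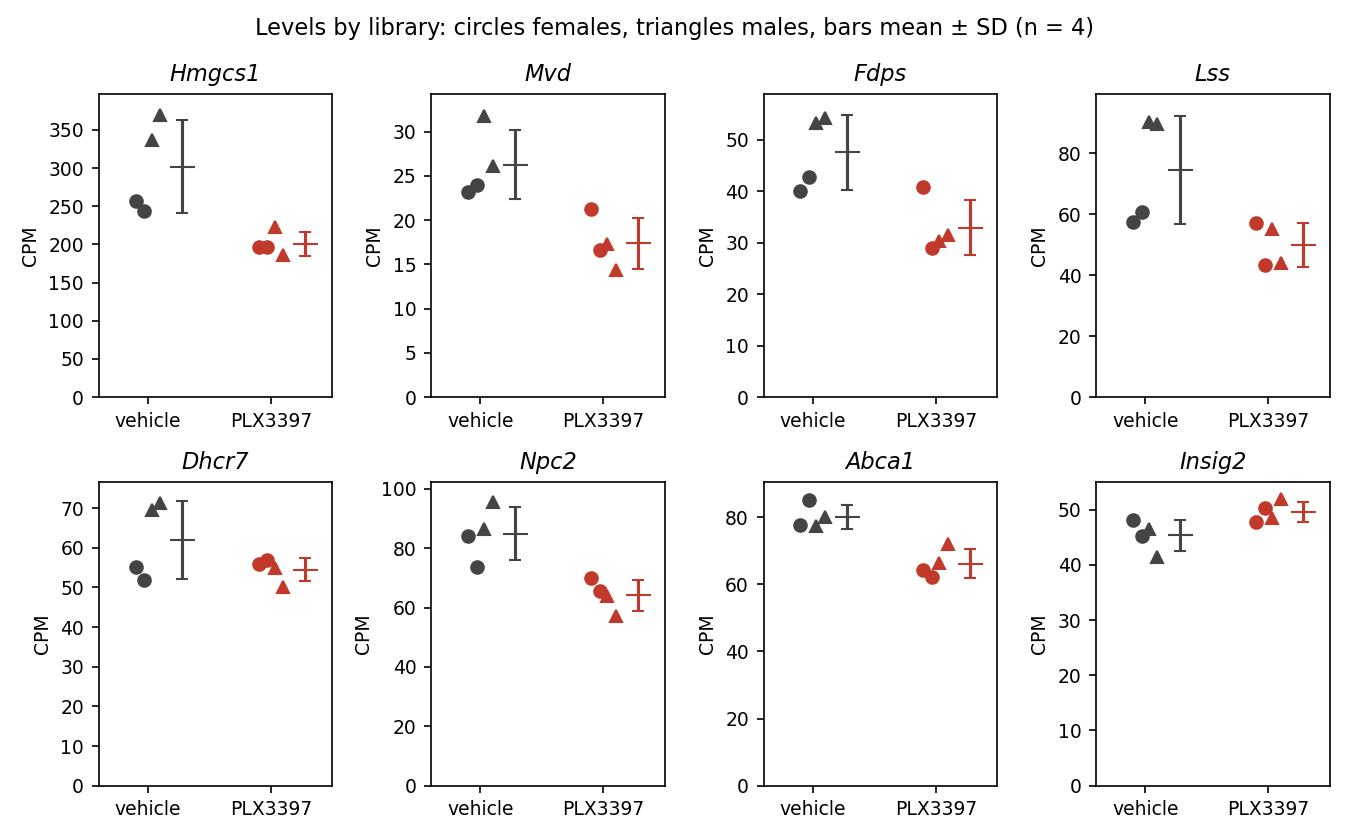
CPM of 8 members in each library, with circles for females, triangles for males, and the mean with its SD (n = 4 libraries) beside each group, on axes that start at 0. Hmgcs1, Mvd, Lss, Npc2 and Abca1 show no overlap between the groups, Fdps overlaps through 1 treated female, Dhcr7 separates the males by far more than the females, which lie the other way, and Insig2 is the one plotted gene with a higher mean after PLX3397.

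The differences were mostly larger in the males. Within females, the log2 fold change was negative for 20 of 31 members with a median of −0.07, and none was called against 0.278% of tested genes called lower. Within males it was negative for 29 of 31 with a median of −0.30, and 4 fell against 1.35% of tested genes called lower. These were Hmgcs1 (−0.79 ± 0.09, edgeR adjusted p = 0.0152), Nsdhl (−0.74 ± 0.10, adjusted p = 0.0224), Npc2 (−0.59 ± 0.10, adjusted p = 0.0485) and Dhcr7 (−0.42 ± 0.07, adjusted p = 0.0496). In the females the same genes had log2 fold changes of −0.35, 0.05, −0.22 and 0.08. The effect was more negative in males for 26 of 31 members and for 18 of 19 synthesis enzymes. The 5 members that went the other way were Lbr, Insig2, Npc1, Abca1 and Nr1h3. Abca1 had log2 fold changes of −0.36 ± 0.07 in females and −0.19 ± 0.07 in males. No member passed the test of the difference between the sexes, against 0.077% of tested genes, and 11 of the 31 had an unadjusted p under 0.05, against 6.01%. The smallest adjusted p of that test was 0.297, for Nsdhl, whose log2 fold change in males minus that in females was −0.79 ± 0.14.

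Levels in the sexes also differed with vehicle, and this comparison was added after the values had been seen. In the vehicle libraries, 18 of 19 synthesis enzymes were higher in males, against 51.1% of tested genes, with a median log2 difference of 0.26. In 14 of the 19 both males lay above both females, against 19.8% of tested genes. None passed the test, against 0.0592% of tested genes called higher in males, and 6 had an unadjusted p under 0.05, against 6.13%. Dhcr7, the reductase that completes cholesterol, stood at 69.5 and 71.3 CPM in vehicle males and at 55.2 and 51.8 CPM in vehicle females (0.40 ± 0.07, edgeR adjusted p = 0.356). With PLX3397 it stood at 54.9 and 50.1 CPM in males and at 56.0 and 56.9 CPM in females, so that the vehicle males stood well above the other 6 libraries, while the treated females lay slightly above the vehicle females. In the PLX3397 libraries, 3 of the 19 were higher in males, against 49.2% of tested genes, and the median difference was −0.17. In 1 both males lay above both females, against 17.5% of tested genes. None passed there either, against 0.107%. The sign in the treated libraries rested on PLX3397 F1, since without it 12 of 19 were higher in males with a median of 0.05, and without PLX3397 M2 the number was 7. The effect within each sex and these differences between the sexes come from the same 8 libraries and are not separate evidence.

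**Figure D4:**
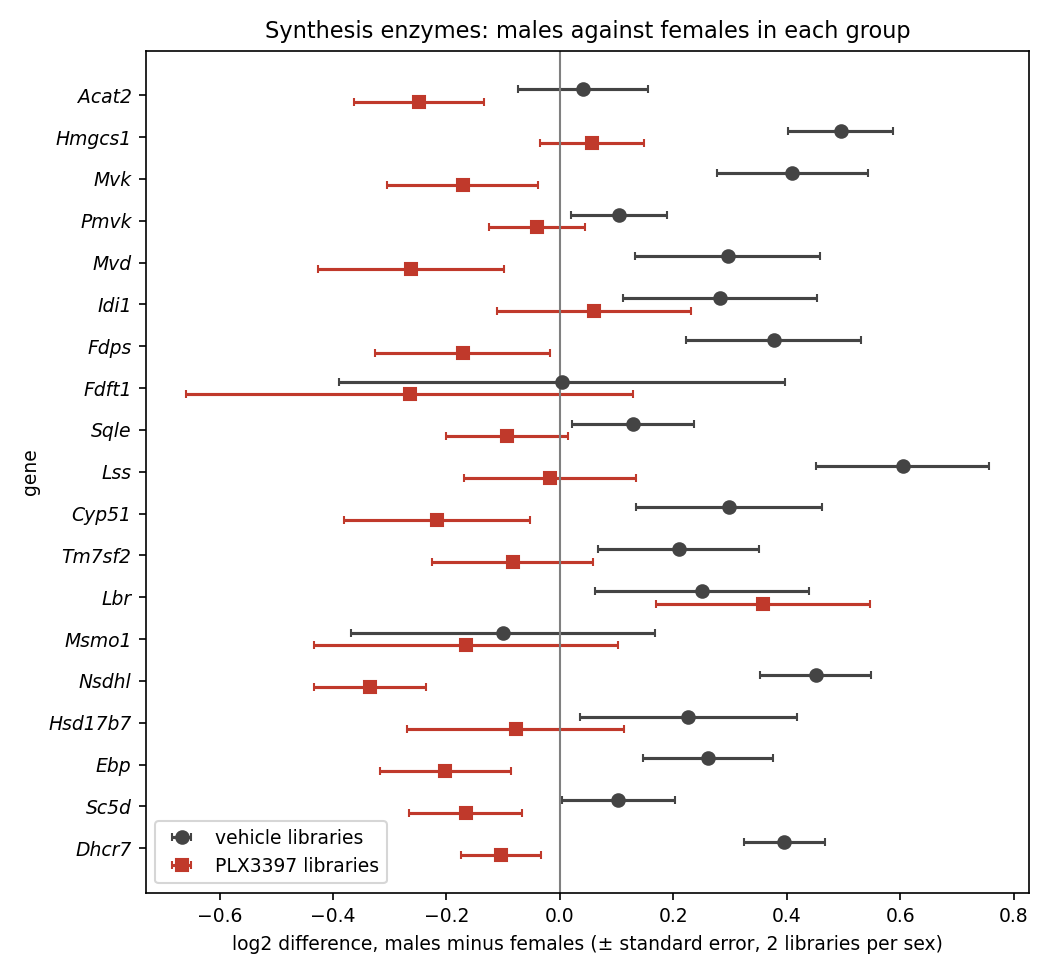
Log2 difference of males against females for each synthesis enzyme, in the vehicle libraries (grey circles) and the PLX3397 libraries (red squares), with bars of 1 standard error from the edgeR fit with 4 groups. The grey points lie right of 0 for 18 of 19 enzymes and the red points for 3 of 19.

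Single libraries also differed within a group. Averaged over the 19 synthesis enzymes, the log2 level relative to the vehicle mean was −0.11 and −0.17 in the vehicle females F1 and F2 and 0.09 and 0.14 in the vehicle males M1 and M2. In the treated females F1 and F2 it was −0.10 and −0.38, and in the treated males M1 and M2 it was −0.26 and −0.44. PLX3397 F1 thus lay just above both vehicle females, and held the highest value of its group for 15 of the 19 enzymes, while PLX3397 M2 held the lowest for 12. Without PLX3397 F1, Mvd (adjusted p = 0.0429), Fdps (0.011) and Lss (0.0366) passed in edgeR and Hmgcs1 narrowly did not (0.0506), and the median of the 31 was −0.26. Without PLX3397 M2 the median was −0.14, without vehicle F1 it was −0.20, and without both it was −0.13 with 28 of 31 negative and no member called.

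Myelin genes moved with the same libraries. All 15 markers of myelinating oligodendrocytes were negative, with a median log2 fold change of −1.20, and 5 fell, among them Myrf (−1.67, edgeR adjusted p = 0.014). Their summed level was 6855 to 10390 CPM with vehicle and 2346 to 5333 CPM with PLX3397, with no marker at 0 in any library. Averaged over the 15, the log2 level was −0.28 and −0.29 in the vehicle females, 0.14 and 0.31 in the vehicle males, −0.70 and −1.34 in the treated females and −1.08 and −1.89 in the treated males. The vehicle males were above the vehicle females for these markers as for the enzymes, and the treated libraries came in the same order, F1 highest, then M1, F2 and M2. This order was not particular to myelin. Genes of acetyl-CoA supply, described below, came in it too, at −0.11, −0.18, −0.25 and −0.31, as did the fatty acid genes described there. So did the microglial markers, at −2.99, −3.26, −3.33 and −5.92. Markers of committed oligodendrocyte precursors also came in it, at −3.02, −3.04, −3.18 and −4.12. Those of oligodendrocyte precursors did not, with F2 at −0.50, F1 at −0.53, M1 at −0.65 and M2 at −0.71. For astrocyte markers, PLX3397 F1 and M1 both stood at 0.00, F2 at −0.04 and M2 at −0.13. All 4 markers of committed oligodendrocyte precursors fell, with a median of −2.58. All 4 markers of oligodendrocyte precursors were negative, with a median of −0.60, and 2 fell, Olig2 (−0.93, adjusted p = 0.0297) and Olig1 (−0.93, adjusted p = 0.0348). Their summed level was 333 to 454 CPM with vehicle and 234 to 273 CPM with PLX3397, with none at 0. The part of these cells in the enzyme values was not tested.

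In the fit over both sexes, the astrocyte, neuron and endothelial lists had smaller median differences. No astrocyte marker passed, with 4 of 9 negative and a median of 0.04, and the summed level was 3235 to 3871 CPM with vehicle and 3461 to 3724 CPM with PLX3397. No neuron marker passed, with 1 of 7 negative and a median of 0.15. Their summed level was 3442 to 3573 CPM with vehicle and 3655 to 3930 CPM with PLX3397. In 4 of the 7, all treated values lay above all vehicle values, against 4.85% of tested genes. The 6 meningeal fibroblast markers had a median of 0.65 with 2 of 6 negative, and Slc6a13 rose (0.73, edgeR adjusted p = 0.0218). Their summed level was 239 to 332 CPM with vehicle and 332 to 470 CPM with PLX3397. Among 4 endothelial markers, Flt1 rose (0.25, adjusted p = 0.0464).

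The pattern between the sexes seen in the enzymes was also present in several of these lists. In the vehicle libraries, 15 of 15 myelin markers, 9 of 9 astrocyte markers, 4 of 4 endothelial markers and 5 of 6 meningeal markers were higher in males. So were 4 of 4 markers each of oligodendrocyte precursors and committed oligodendrocyte precursors. The count was 5 of 10 for microglial and 2 of 7 for neuron markers, and the share over all tested genes was 51.1%. The median log2 difference was 0.23 for the astrocyte markers, beside 0.26 for the synthesis enzymes, and 7 of the 9 had both males above both females. The effect of PLX3397 was more negative in males for 9 of 9 astrocyte markers, with a median difference of −0.27 beside −0.30 for the enzymes. The same held for 10 of 10 microglial markers, with a median difference of −0.74, and for 15 of 15 myelin markers. It held for 4 of 4 markers each of committed oligodendrocyte precursors, oligodendrocyte precursors and endothelial cells. It also held for 5 of 6 meningeal markers, 4 of 7 neuron markers and 8633 of all 16894 tested genes. Within females 8 of 9 astrocyte markers were positive, and within males 7 of 9 were negative and 1 fell, Gfap (−0.53, edgeR adjusted p = 0.0462), which is named here after its value was seen. No marker in these lists passed the test between vehicle males and females or the test of the difference between the sexes. The part of astrocytes and of the other cell types in the enzyme values was not tested.

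**Figure D5:**
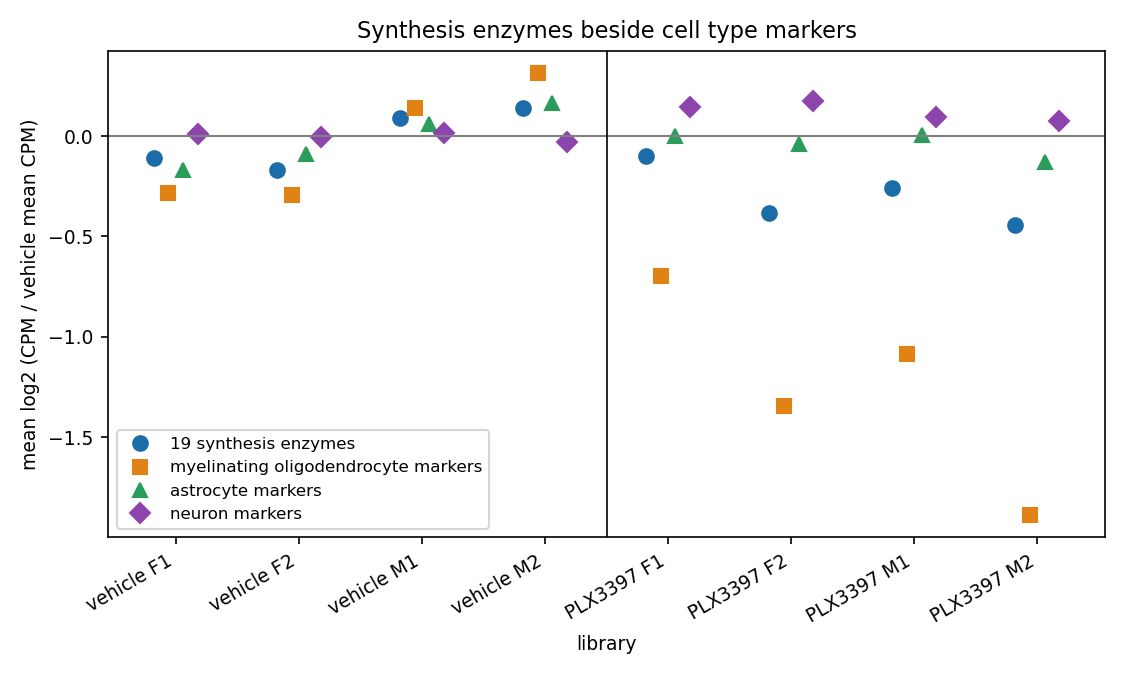
Mean log2 level relative to the vehicle mean in each library, for the 19 synthesis enzymes and the markers of myelinating oligodendrocytes, astrocytes and neurons. The treated libraries come in the same order for the enzymes and the myelin markers, from −0.10 to −0.44 and from −0.70 to −1.89. The astrocyte markers lie at 0.00 in PLX3397 F1 and M1, −0.04 in F2 and −0.13 in M2. The neuron markers lie between 0.08 and 0.18 in the treated libraries.

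A wider list of 63 genes around the pathway was examined, of which 61 passed the filter on low values. Of these, 36 were negative with a median of −0.04, 2 fell and 1 rose, against the backgrounds of 1.83% and 0.308% given above. Lima1, which encodes a protein of cholesterol traffic in the gut that also binds actin, stood at 20.1 to 26.1 CPM with vehicle and at 12.8 to 14.7 CPM with PLX3397 and fell by 0.72 ± 0.07 (edgeR adjusted p = 0.00518). Apod, a glial carrier of small lipids, stood at 82.7 to 97.1 CPM with vehicle and at 115 to 126 CPM with PLX3397 and rose by 0.43 ± 0.04 (adjusted p = 0.0046). Neither gene's groups overlapped.

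The fatty acid genes under SREBP1 and LXR were negative in 9 of 9 cases, with a median of −0.20. Among them Lpcat3, a phospholipid-remodelling enzyme and LXR target, stood at 23.6 to 27.0 CPM with vehicle and at 17.8 to 20.01 CPM with PLX3397 and fell by 0.39 ± 0.07 (edgeR adjusted p = 0.0341). The desaturases Fads2 (−0.22, adjusted p = 0.0671) and Fads1 (−0.26, adjusted p = 0.0868) did not pass. The 4 genes of acetyl-CoA supply were also all negative, with a median of −0.18 and none called, Acss2 having the smallest p (−0.40, adjusted p = 0.189).

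On the uptake side, no lipoprotein receptor or partner passed in edgeR, with 3 of 7 negative and log2 fold changes from −0.98 to 0.22. In 3 of the 7, all treated values lay below all vehicle values, against 6.32% of tested genes. In 2 all lay above, against 4.85%. DESeq2 called 2 lower and 1 higher, against 755 and 342 of 16894 tested genes. The reelin and lipoprotein receptor Lrp8 stood at 97.0 ± 4.6 CPM with vehicle and at 113 ± 6.3 CPM with PLX3397 (SD, n = 4; 0.22 ± 0.05 on the log2 scale, edgeR adjusted p = 0.0879). Mylip, the LXR-induced ligase that degrades such receptors, had a log2 fold change of −0.33 (adjusted p = 0.129).

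No gene passed among the SREBP processing and sterol-sensing genes (5 of 8 negative), the isoprenoid branches (4 of 6), the ester enzymes (0 of 3), the oxysterol and bile acid enzymes (1 of 4 tested) or the RXR partners of LXR (1 of 3). Cyp46a1, the neuronal enzyme that turns cholesterol into an exportable oxysterol, stood at 104 ± 6.1 CPM with vehicle and at 109 ± 4.6 CPM with PLX3397 (SD, n = 4; edgeR adjusted p = 0.572). Cyp27a1, the mitochondrial sterol hydroxylase, had a log2 fold change of −0.57 (adjusted p = 0.163). Among the sterol carriers beside Lima1, Stard3 of late endosomes had a log2 fold change of −0.31 (adjusted p = 0.103), and among the exporters and carriers beside Apod, Lcat, which esterifies cholesterol on lipoproteins, had −0.42 (adjusted p = 0.0911).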

How the data were processed

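The 31 genes and all gene lists were chosen with earlier results of these data known. The deposited table pairs whole-number counts for each gene with FPKM, both computed by the authors. For tools and build, processing notes from the submitters list mm10, HISAT2, StringTie, limma, DESeq2 and bcl2fastq 2.0 with no roles. The read counter, its strand setting and the annotation were not given in the sources used here. Counts were tested with edgeR 4.0.16 (R 4.3.3): TMM scaling, quasi-likelihood F-test, sex as covariate, all 8 libraries, mean FPKM 0.5 or more, and Benjamini-Hochberg adjustment over 16894 genes at 0.05. A model with 4 groups gave the effects within each sex and their difference. CPM are TMM-scaled, and errors are SE of log2 fold changes or SD of libraries. DESeq2 1.42.0, limma 3.58.1 on log2(FPKM + 0.5), other filters and scalings, a replicate block and left-out libraries were alternatives. The code was tested on simulated data. All 31 members were named. Of other pathway genes up to 3 per list were named by smallest p. Up to 2 markers per list were named likewise, apart from those named as present, as at 0 or after their value was seen. Promoters, from RefSeq, were scanned for exact motif matches, and 25 of the 31 genes had an entry.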

Additional observations from a re-analysis of the deposited data

Results flagged for a closer look

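In 3 of the 62 groups of 4 libraries examined (31 genes in each of the 2 treatment groups), a single library lay far from the other 3, with a gap to its nearest neighbour that exceeded Dixon's critical share of the group's range. Chance alone marks about 1 in 20 such groups. Lbr, which encodes both a sterol reductase and the lamin B receptor, stood at 18.9 CPM in PLX3397 M1 and at 12.5 to 13.4 CPM in the other PLX3397 libraries. Srebf2 stood at 204 CPM in PLX3397 F1 and at 172 to 177 CPM in the other 3. Nr1h2, the gene of LXR beta, stood at 34.5 CPM in PLX3397 M1 and at 36.8 to 37.2 CPM in the other 3. None of the 3 genes passed the treatment test.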

How the results depend on the processing

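Over 19 alternatives, 25 to 29 of the 31 members were negative and their median ran from −0.26 to −0.13, less than the spread between libraries (SD 0.12) from the value reported. The counts of calls depended on the processing. Of all tested genes, 362 were called in the reported fit, 1097 by DESeq2, 79 with a replicate block, 138 to 361 without 1 library and 123 without both vehicle F1 and PLX3397 M2. Of the members, 1 was called in the reported fit, 7 by DESeq2, 0 with a replicate block, 0 to 3 without 1 library and 0 without those 2. DESeq2's 7 were Hmgcs1, Mvd, Fdps, Lss, Ebp, Npc2 and Abca1, and Hmgcs1 passed in 9 of the 19 alternatives, with adjusted p from 1.49e-05 to 0.138. No pairing of the libraries by replicate label was detected. Correlations of deviations ran from −0.04 to 0.04 for libraries of the same label, and not every library correlated best with its own label. A litter or batch shared by libraries of the same label was not tested. Signs reversed for 5 genes with differences near 0 or wide errors. Fdft1 ran from −0.27 to 0.13 without 1 library and was 0.30 without both vehicle F1 and PLX3397 M2. Msmo1 ran from −0.25 to 0.0608, Scap from −0.054 to 0.0221, Abcg1 from −0.30 to 0.00999 and Nr1h2 from −0.0496 to 0.0597 without 1 library, and Nr1h2 was 0.00652 with all genes that had any count. The median difference between PLX3397 males and females over the synthesis enzymes ran from −0.25 to 0.0465 without 1 library. The signs within each sex, 20 and 29 negative, were the same when that sex was fitted alone. With 2 libraries per sex and group, the difference between the sexes is the least precise of the comparisons. The cause of these changes was not tested.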
